A study of Mus musculus with 40 samples.

Results

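The galectin genes *Lgals1*, *Lgals3*, *Lgals8* and *Lgals9* and the galectin-binding gene *Lgals3bp* were followed through cortical RNA sequencing of *Trem2* H157Y knock-in mice. They were chosen by gene name and are 5 of the 43346 genes in the count table, and all 5 were among the 21253 genes tested, those with at least 10 counts in at least 4 libraries. The 40 libraries came from 40 mice in 4 groups of 10, each with 5 females and 5 males. The non-amyloid cohort was 6 months old and held mice wild type at *Trem2* (non-amyloid WT) and mice homozygous for H157Y (non-amyloid Hom). The amyloid cohort was 8.5 months old and held the same genotypes (amyloid WT and amyloid Hom), and every mouse in it, WT controls included, also carried the hemizygous 5xFAD transgenes, which are driven by the neuronal *Thy1* promoter. H157Y was placed in the endogenous *Trem2* locus by CRISPR/Cas9, so that the allele was present in every cell, and the cortex was pulverized whole. The cohorts differed in both age and transgene, and these cannot be told apart in a comparison of cohorts.

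Galectins are a family of lectins that bind β-galactoside sugars on glycoproteins and glycolipids, both outside the cell and, after membrane damage, inside it. They cross-link glycosylated receptors and so affect adhesion, phagocytosis, cytokine production and the handling of damaged lysosomes. In the brain galectin-3 is known as a product of activated microglia, the resident macrophages of the tissue, and galectin-1 is known from astrocytes, blood vessels and fibroblasts.

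Total counts ran from 41646271 to 105903846 per library, with a median of 77193387. Amyloid Hom replicate 19, a female, stood apart. On 511 genes covered by exons of a more abundant gene of the opposite strand it held 0.586% of its counts, against 0.00457% to 0.00695% in the other 39 libraries, so the results that use it were also computed without it. Sex-linked genes went against the label in 0 libraries. The counts do not show the H157Y allele itself, which is a point change. *Trem2* was 0.87 log2 units lower in amyloid Hom than in amyloid WT mice (SE 0.21, adjusted p = 0.0763, edgeR), and 0.90 lower without replicate 19 (adjusted p = 0.0987). The check of cell types found marker genes of neurons, astrocytes, oligodendrocytes and microglia in all 4 groups, and no gene of those lists was at 0 in all libraries of a group. Summed neuronal markers ran from 6467 to 8277 CPM (counts scaled to a TMM-adjusted library size of 1000000) over the 40 libraries. Summed choroid plexus markers were uneven, from 5.69 to 659 CPM. Their group means were 27.8 (non-amyloid WT), 77.4 (non-amyloid Hom), 86.6 (amyloid WT) and 218 CPM (amyloid Hom). The group medians were far lower, at 10.4, 9.19, 15.7 and 22.1 CPM in the same order. The libraries were thus not alike in this tissue, and its part in the galectin values was not tested.

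Levels were first compared between the genes, as CPM per kb of exon. In non-amyloid WT mice *Lgals1*, the small prototype galectin, was the most abundant, at 15.2 ± 2.60 CPM per kb (SD, n = 10). *Lgals8*, a tandem-repeat galectin that marks damaged lysosomes, followed at 9.02 ± 0.842 CPM per kb. *Lgals3bp*, which encodes a secreted glycoprotein that binds galectin-3, was at 3.76 ± 0.573 CPM per kb. *Lgals9*, a tandem-repeat galectin that binds the receptor Tim-3, was at 3.62 ± 0.424 CPM per kb, and these last values overlapped between libraries. *Lgals3*, the chimeric galectin, came last at 0.209 ± 0.102 CPM per kb, below the other genes in all 10 mice. The order was the same in non-amyloid Hom mice. In amyloid WT mice *Lgals3bp* stood second, at 17.3 ± 10.4 CPM per kb, and it exceeded *Lgals8* in 8 of 10 mice. In amyloid Hom mice *Lgals8* was second, at 9.95 ± 1.003 CPM per kb, and then *Lgals3bp*, at 8.44 ± 1.71 CPM per kb, with *Lgals8* above it in 8 of 10 mice. *Lgals3* remained lowest in both amyloid groups, at 0.865 ± 0.604 CPM per kb in WT and 0.493 ± 0.111 CPM per kb in Hom mice.

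**Figure D1:**
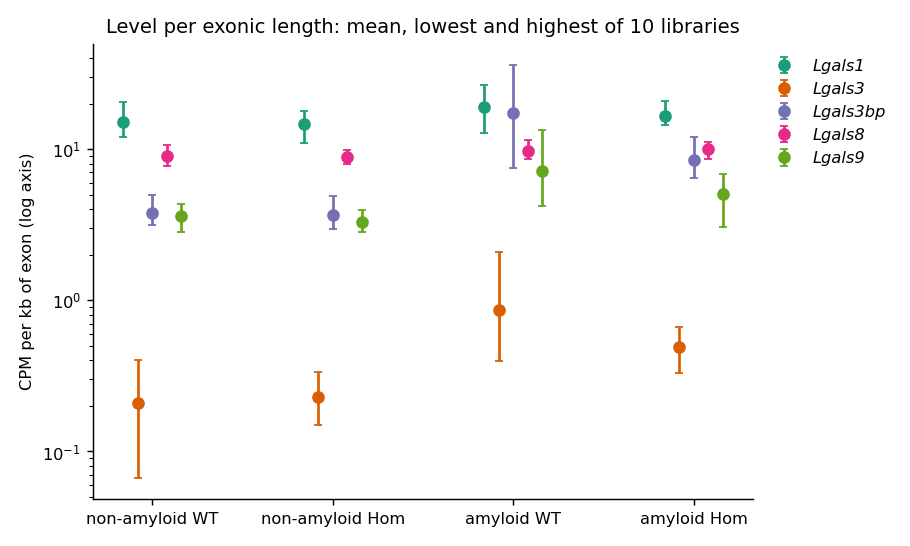
Level of each gene per exonic length (y axis, CPM per kb, log axis) in the 4 groups (x axis). Points are means and bars reach from the lowest to the highest of 10 libraries. *Lgals1* is at the top and *Lgals3* at the bottom in every group, and *Lgals3bp* moves from 3.76 in non-amyloid WT to 17.3 in amyloid WT mice.

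The question of whether these genes differ with amyloid was addressed first within the WT genotype. Between amyloid WT and non-amyloid WT mice, 4 of the 5 genes were called, all higher in amyloid mice, where 7.95% of all tested genes were called (1407 higher and 282 lower). A gene was called where edgeR's quasi-likelihood test gave a p under 0.05 after Benjamini-Hochberg adjustment over all tested genes and the log2 fold change exceeded 0.25 in size. The median log2 fold change was 0.98 over the 5 genes and 0.0023 over all tested genes. Within Hom mice 3 of the 5 were called, all higher in amyloid mice, against 6.56% of all genes (1213 higher and 182 lower). The same 3 genes were called in Hom mice without replicate 19, against 4.55% of all genes (967 in place of 1395). The genotype comparisons below use the same amyloid and non-amyloid libraries, so the values of the comparisons are not independent.

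*Lgals3bp* lies at chr11:118392751-118402092 on the minus strand (mm10, ENSMUSG00000033880). Its level in non-amyloid WT mice had a lowest, median and highest value of 8.99, 10.3 and 14.1 CPM, and in non-amyloid Hom mice of 8.39, 10.3 and 13.9 CPM. In amyloid WT mice the corresponding values were 21.3, 38.1 and 103 CPM, and in amyloid Hom mice 18.4, 22.7 and 34.3 CPM. No amyloid library overlapped a non-amyloid library of the same genotype. How many of all tested genes separate the groups to this degree was not counted, here or for the genes below. *Lgals3bp* rose by 2.20 log2 units in WT mice (SE 0.20, adjusted p = 1.83e-11, edgeR), a mean ratio of 4.60. In Hom mice it rose by 1.20 log2 units (SE 0.19, adjusted p = 2.96e-05, edgeR), a mean ratio of 2.30, and by 1.22 without replicate 19.

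*Lgals3* lies at chr14:47367751-47386160 on the plus strand (ENSMUSG00000050335). It was low in these whole-cortex libraries, with 8 to 59 counts per non-amyloid library and 43 to 285 per amyloid library, so counting error is a larger share of its spread than for the other genes. The lowest, median and highest levels were 0.124, 0.360 and 0.751 CPM in non-amyloid WT, and 0.277, 0.402 and 0.622 CPM in non-amyloid Hom mice. They were 0.741, 1.04 and 3.87 CPM in amyloid WT, and 0.610, 0.925 and 1.24 CPM in amyloid Hom mice. In each genotype 9 of 10 amyloid libraries lay above all non-amyloid libraries. *Lgals3* rose by 2.04 log2 units in WT mice (SE 0.29, adjusted p = 6.84e-07, edgeR). It rose by 1.10 log2 units in Hom mice (SE 0.28, adjusted p = 0.00978, edgeR), and by 1.05 without replicate 19 (adjusted p = 0.0229).

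*Lgals9* lies at chr11:78962974-78984946 on the minus strand (ENSMUSG00000001123). Its lowest, median and highest levels were 6.07, 7.72 and 9.20 CPM in non-amyloid WT, and 6.03, 7.15 and 8.43 CPM in non-amyloid Hom mice. In amyloid WT mice they were 8.98, 14.3 and 28.4 CPM, and in amyloid Hom mice 6.57, 10.4 and 14.7 CPM. The lowest amyloid Hom value was that of replicate 19, and it was the one amyloid Hom library that lay within the non-amyloid Hom range. *Lgals9* rose by 0.98 log2 units in WT mice (SE 0.13, adjusted p = 2.34e-07, edgeR) and by 0.60 in Hom mice (SE 0.13, adjusted p = 0.00204, edgeR). Without replicate 19 the rise in Hom mice was 0.66 log2 units, and the Hom groups did not overlap, a separation not counted over all tested genes.

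*Lgals1* lies at chr15:78926725-78930465 on the plus strand (ENSMUSG00000068220). Its lowest, median and highest levels were 9.55, 11.5 and 16.4 CPM in non-amyloid WT and 10.2, 15.2 and 21.4 CPM in amyloid WT mice. They were 8.76, 11.9 and 14.4 CPM in non-amyloid Hom and 11.5, 13.4 and 16.6 CPM in amyloid Hom mice, so that the cohorts overlapped in both genotypes. *Lgals1* rose by 0.32 log2 units in WT mice (SE 0.10, adjusted p = 0.0373, edgeR). This call held in 10 of 21 fits that each left out a single library, and was lost without amyloid WT replicate 5, 12, 27 or 32 or non-amyloid WT replicate 7, 15, 24, 28, 29, 31 or 38 (adjusted p up to 0.119, edgeR). In Hom mice the difference of 0.20 did not pass (95% confidence interval −0.01 to 0.40, adjusted p = 0.254, edgeR), nor did it without replicate 19 (0.19, adjusted p = 0.324).

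*Lgals8* lies at chr13:12439415-12464944 on the minus strand (ENSMUSG00000057554), and 155 of its 3688 exonic bases overlap exons of *Heatr1* on the opposite strand. Its median levels were 33.6 CPM in non-amyloid WT, 32.4 in non-amyloid Hom, 35.5 in amyloid WT and 35.9 in amyloid Hom mice. The ranges of all 4 groups overlapped, from 28.3 to 42.5 CPM over the 40 libraries. Neither cohort difference passed the test in edgeR, at 0.12 log2 units in WT mice (95% confidence interval −0.01 to 0.24, adjusted p = 0.275) and 0.16 in Hom mice (0.04 to 0.28, adjusted p = 0.100). Without replicate 19 the difference in Hom mice was 0.18 (adjusted p = 0.0744, edgeR).

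**Figure D2:**
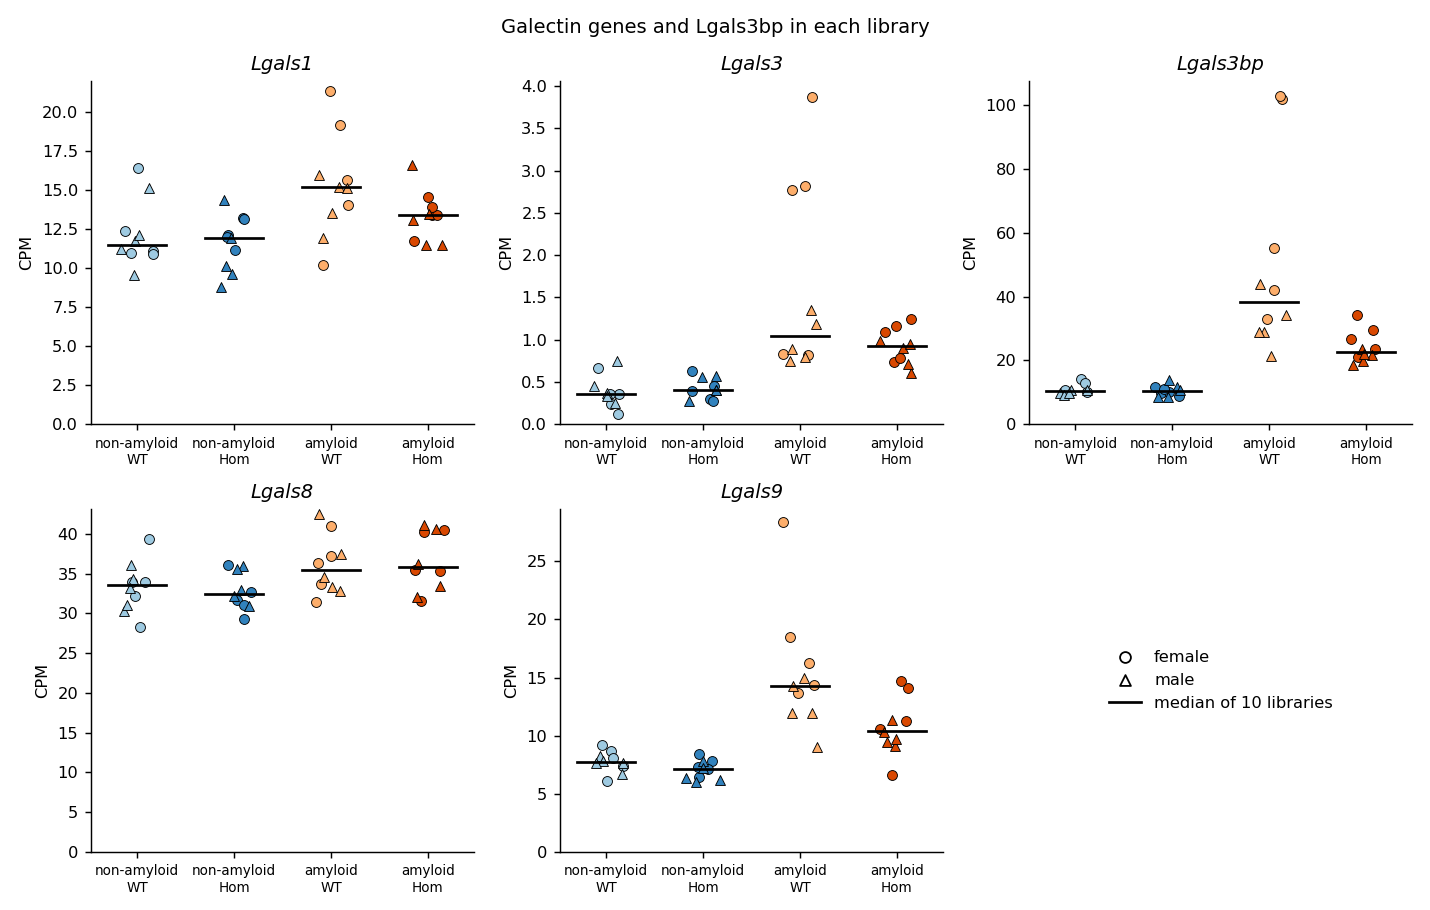
CPM (y axis, from 0) of each gene in every library, by group (x axis), with circles for females, triangles for males and a line at the median of 10 libraries. The *Lgals3bp* points of the amyloid groups lie above those of the non-amyloid groups, and 2 amyloid WT females stand at 102 and 103 CPM.

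Marker genes of microglia and reactive astrocytes were also compared between the cohorts. In WT mice 8 of 8 homeostatic microglial genes, 12 of 12 plaque-associated microglial genes, 10 of 10 interferon response genes and 6 of 6 reactive astrocyte genes were called higher. In Hom mice 6 of 8 homeostatic, 10 of 12 plaque-associated, 2 of 10 interferon and 3 of 6 reactive astrocyte genes were called, all higher, and without replicate 19 the counts were 5, 10, 1 and 3. Of 3 tested T cell markers *Cd3e* and *Cd8a* were called higher and *Cd4* lower in WT mice, and *Cd8a* was called higher and *Cd4* lower in Hom mice. Without replicate 19, 2 of the 3 were called higher in Hom mice and 0 lower, so the *Cd4* call there was lost. The summed homeostatic markers ran from 319 to 419 CPM in non-amyloid WT and from 555 to 1163 CPM in amyloid WT mice, and the summed plaque-associated markers from 546 to 690 and from 1218 to 3141 CPM. No gene of these lists was at 0 in every library. In bulk tissue more cells of a type and more RNA per cell cannot be told apart, and the part of these cells in the galectin differences was not tested.

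The effect of H157Y was then examined within each cohort. Between amyloid Hom and amyloid WT mice 0 of the 5 genes were called by edgeR, where 0.0753% of all tested genes (16) were called. The count was also 0 of 5 without replicate 19, against 15 of all genes. At an unadjusted p under 0.05 there were 3 of the 5, *Lgals3bp*, *Lgals9* and *Lgals3*, beside 2056 of all 21253 genes. All 3 had lower mean levels in Hom mice.

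For *Lgals3bp* all 10 amyloid Hom libraries lay below the amyloid WT median of 38.1 CPM, 3 of them lay below every WT library, and 6 WT libraries lay above every Hom library. The mean was 24.04 ± 4.86 CPM in Hom and 49.3 ± 29.6 CPM in WT mice (SD, n = 10 each). The log2 fold change was −1.04 (SE 0.24, 95% confidence interval −1.54 to −0.53, adjusted p = 0.0747, edgeR), so the difference did not pass the threshold over all genes. Without replicate 19 it was −1.01 (adjusted p = 0.119). It did pass with sex as a covariate (−0.95, adjusted p = 0.0137), in edgeR's fit of all 40 libraries (adjusted p = 0.00139) and in DESeq2 (−1.02, adjusted p = 0.0126), and it did not pass in limma-voom with sample weights (−0.71, adjusted p = 0.270). With sex as a covariate and without replicate 19, a setting added after the data were seen, it passed as well (−0.89, adjusted p = 0.0288). The fit of all 40 libraries used a dispersion of each gene that was shared by all 4 groups. The SD of *Lgals3bp* was 29.6 CPM in amyloid WT and 4.86 CPM in amyloid Hom mice. In non-amyloid WT and Hom mice it was 1.63 and 1.73 CPM. The difference between amyloid Hom and WT mice thus lay on either side of the threshold, depending on the fit.

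The log2 fold change of *Lgals9* was −0.52 (SE 0.16, 95% confidence interval −0.85 to −0.18, adjusted p = 0.177, edgeR), and −0.45 without replicate 19. Of the 10 amyloid Hom libraries 9 lay below the amyloid WT median of 14.3 CPM, and 9 lay within the WT range. In the fit of all 40 libraries *Lgals9* passed (adjusted p = 0.0169), and it passed in none of the other settings tried.

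*Lgals3* had a log2 fold change of −0.82 (SE 0.30, 95% confidence interval −1.43 to −0.20, adjusted p = 0.286, edgeR), and −0.87 without replicate 19. The medians of 1.04 CPM in WT and 0.925 CPM in Hom mice lay closer together than the means, 1.61 ± 1.12 and 0.915 ± 0.207 CPM (SD, n = 10 each). The difference of the means rested on 3 WT females at 2.77, 2.82 and 3.87 CPM. Without the highest of these, amyloid WT replicate 32, the log2 fold changes were −0.56 for *Lgals3*, −0.84 for *Lgals3bp* and −0.37 for *Lgals9*, and 0 of the 5 genes were called.

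*Lgals1* was at −0.19 log2 units (95% confidence interval −0.41 to 0.03, adjusted p = 0.569) and *Lgals8* at 0.03 (−0.11 to 0.16, adjusted p = 0.895) in amyloid Hom against amyloid WT mice in edgeR. The interval of *Lgals8* excludes differences above 0.16 log2 units in either direction at this confidence level, and all 10 amyloid Hom values lay within the WT range. Without replicate 19 *Lgals1* was at −0.19 and *Lgals8* at 0.05.

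In the non-amyloid cohort 0 of the 5 genes were called between Hom and WT mice, where 0.0329% of all tested genes (7) were called and 980 had an unadjusted p under 0.05. None of the 5 was among these. *Lgals3bp* differed by −0.03 log2 units (95% confidence interval −0.23 to 0.17) and *Lgals9* by −0.13 (−0.29 to 0.03). *Lgals3*, with its low counts, had the widest interval, from −0.39 to 0.65 around 0.13. The adjusted p-values of the 5 genes in edgeR ran from 0.965 to 0.986.

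**Figure D3:**
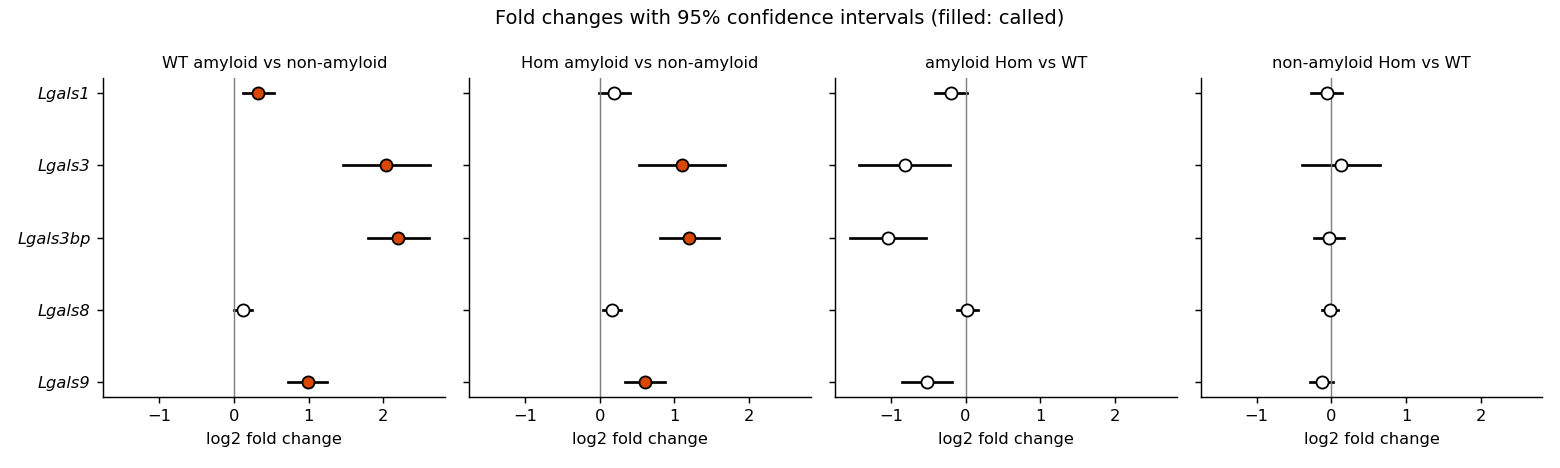
Log2 fold change (x axis) of each gene (y axis) in 4 comparisons, as points with 95% confidence intervals, filled where the gene was called. The cohort comparisons hold 4 and 3 filled points to the right of 0, the genotype comparisons hold none, and the intervals of *Lgals3bp*, *Lgals3* and *Lgals9* lie below 0 in the amyloid cohort.

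Whether the genotype difference itself differed between cohorts was tested in the fit of all 40 libraries. None of the 5 genes was called (0 of 5), and the share over all genes was 0%, with 2189 genes at an unadjusted p under 0.05 and 38 genes called by DESeq2. *Lgals3bp* had an interaction of −1.0 log2 units (SE 0.27, 95% confidence interval −1.55 to −0.45, adjusted p = 0.136, edgeR). The interaction was −0.94 for *Lgals3* (−1.74 to −0.13, adjusted p = 0.437) and −0.38 for *Lgals9* (−0.76 to −0.01, adjusted p = 0.480). Without replicate 19 the interactions were −0.98 for *Lgals3bp*, −0.99 for *Lgals3* and −0.32 for *Lgals9* (adjusted p from 0.257 to 0.649, edgeR).

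The homeostatic, plaque-associated, interferon and reactive astrocyte lists also had lower values in Hom mice. In amyloid Hom against amyloid WT mice 8 of 8 homeostatic, 12 of 12 plaque-associated, 10 of 10 interferon and 6 of 6 reactive astrocyte genes had lower means. Of these 36 genes 1 was called, and the median log2 fold changes of the lists were −0.42, −0.86, −1.16 and −0.72, beside 0.0014 over all genes. Without replicate 19 all 36 means were again lower and 1 gene was called. The summed interferon genes ran from 70.4 to 333 CPM in amyloid WT and from 65.2 to 102 CPM in amyloid Hom mice. The summed homeostatic markers ran from 470 to 794 CPM in amyloid Hom mice. The part of these differences in the values of *Lgals3bp*, *Lgals9* and *Lgals3* was not tested.

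Sex was balanced in the design, and values are given here for each sex. *Lgals3bp* was at 32.9, 41.9, 55.4, 102 and 103 CPM in the 5 amyloid WT females and at 21.3, 28.9, 28.97, 34.4 and 44.0 CPM in the 5 males. In amyloid Hom mice it was at 21.05, 23.5, 26.7, 29.6 and 34.3 CPM in females and at 18.4, 19.7, 21.8, 21.9 and 23.5 CPM in males. The 3 amyloid WT females with the highest *Lgals3bp* were those with the highest *Lgals3*, replicates 5, 12 and 32, and replicate 32 was also highest for *Lgals9*. Between amyloid females and males 0 of the 5 genes were called in edgeR, where 0.24% of all genes were called, and the log2 differences of females from males were 0.73 for *Lgals3bp* (adjusted p = 0.114), 0.72 for *Lgals3* (adjusted p = 0.387) and 0.38 for *Lgals9* (adjusted p = 0.442). DESeq2 called *Lgals3bp* in this comparison (0.72, adjusted p = 0.0167). Without replicate 19 edgeR called 0 of the 5 genes and 0.419% of all genes (89 in place of 51), with *Lgals3bp* at 0.78 (adjusted p = 0.0857), *Lgals3* at 0.71 and *Lgals9* at 0.45. In the non-amyloid cohort 0 of 5 were called, against 0.122% of all genes.

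The genotype difference in the amyloid cohort was also compared between the sexes. The interaction was −0.73 log2 units for *Lgals3bp* (95% confidence interval −1.47 to 0.01) and −0.90 for *Lgals3* (−1.92 to 0.12), both with an adjusted p of 0.817 in edgeR. None of the 5 genes was called, beside 0% of all genes, with 1124 genes at an unadjusted p under 0.05. Without replicate 19 the interactions were −0.65 and −0.99 (adjusted p = 0.891 for each), and again none of the 5 was called. With 5 mice of each sex and genotype, a difference between the sexes was not established.

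The genes were next examined for variation between mice of the same group and sex. Log2 CPM values had the mean of their group and sex subtracted, and the 10 pairs of genes were compared over the 40 libraries by permutation within group and sex. *Lgals3bp* and *Lgals9* varied together, with Pearson's r = 0.722 and Spearman's rho = 0.716 (permutation p = 2e-05 for each, adjusted p = 2e-04 for each, two-sided). The correlation was 0.745 within the amyloid and 0.626 within the non-amyloid cohort. It was 0.748 without replicate 19 (adjusted permutation p = 3e-04). Without the 2 libraries farthest from the median of *Lgals3bp* it was 0.650 (adjusted permutation p = 5e-04). Of the other pairs 1 passed the adjustment, *Lgals1* and *Lgals8* in opposite directions (r = −0.439, adjusted permutation p = 0.0476). Its Spearman's rho was −0.345 (adjusted permutation p = 0.105). The r was −0.425 within the amyloid and −0.459 within the non-amyloid cohort, −0.459 without replicate 19 (adjusted permutation p = 0.0355) and −0.358 without the 2 farthest libraries, replicates 8 and 12 (adjusted permutation p = 0.220), so that its direction was kept and its call was not. *Lgals3* and *Lgals3bp* had an r of 0.494 (adjusted permutation p = 0.111), 0.754 in the amyloid and 0.0222 in the non-amyloid cohort. *Lgals1* and *Lgals3bp* had an r of 0.510 (adjusted permutation p = 0.0663), and 0.520 without replicate 19 (adjusted permutation p = 0.0481). *Lgals3* and *Lgals9* had an r of 0.371 (adjusted permutation p = 0.111), and 0.514 without replicate 19 (adjusted permutation p = 0.0355). Neither pair passed without its 2 farthest libraries (r = 0.277 and 0.241).

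The same values were compared with the mean log2 CPM of 5 marker lists, 25 pairs in all. In 6 of them the adjusted permutation p was under 0.05, and each of the 6 involved *Lgals3bp* or *Lgals9*. *Lgals3bp* had r = 0.780 with the interferon response list (rho = 0.620, adjusted permutation p = 9.37e-04 for r), 0.882 within the amyloid and 0.342 within the non-amyloid cohort. *Lgals9* had r = 0.744 with the interferon list (rho = 0.688, adjusted permutation p = 7.5e-04 for r), 0.765 within the amyloid and 0.651 within the non-amyloid cohort. Both also varied with the plaque-associated list, at r = 0.716 for *Lgals3bp* and 0.660 for *Lgals9*. Both varied with the homeostatic list, at r = 0.511 and 0.569. Without the 2 farthest libraries of each gene these were 0.523 (adjusted permutation p = 0.0205) and 0.419 (adjusted permutation p = 0.147), so that the call for *Lgals9* was lost without replicates 19 and 32, while the other 5 pairs passed. Without replicate 19 alone all 6 pairs passed. The relation to the homeostatic list was found in the amyloid cohort (r = 0.668 and 0.731), while r was −0.139 and −0.123 in the non-amyloid cohort. *Lgals1* had its largest r with the list of pericytes and fibroblasts, 0.501, which did not pass (adjusted permutation p = 0.0679), while its rho of 0.457 did (adjusted permutation p = 0.0411). Without replicates 8 and 12 the r was 0.320 (adjusted permutation p = 0.278). *Lgals9* and the reactive astrocyte list likewise passed by rho (0.464, adjusted permutation p = 0.0386) and not by r (0.443, adjusted permutation p = 0.128). Both values of a pair came from the same library.

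**Figure D4:**
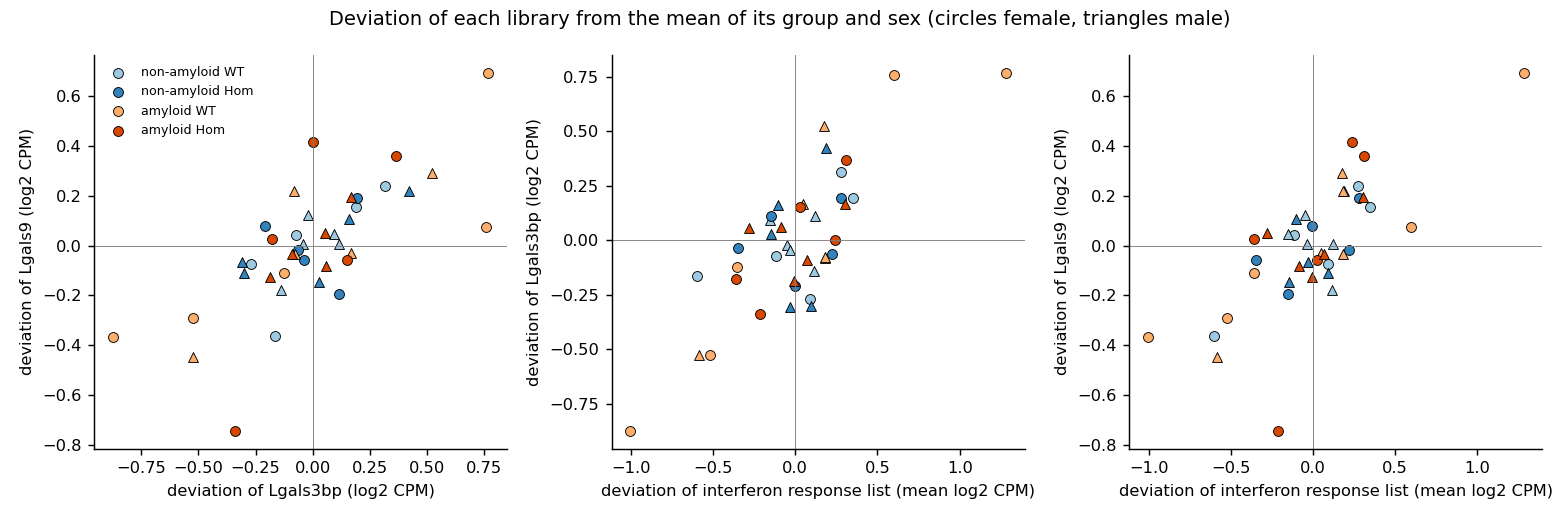
Deviation of each of 40 libraries from the mean of its group and sex, in log2 CPM, for *Lgals9* against *Lgals3bp* (left), *Lgals3bp* against the interferon response list (middle) and *Lgals9* against that list (right). Colours mark groups, circles females and triangles males. Points run from lower left to upper right, with r of 0.722, 0.780 and 0.744, and amyloid WT libraries lie at both ends.

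Over the 40 libraries with group means removed, the genes most like *Lgals3bp* among 15198 genes of at least 1 CPM were *Axl* (r = 0.888), *Npc2* (r = 0.883) and *C4b* (r = 0.874), which encode a phagocytic receptor kinase, a lysosomal cholesterol transporter and a complement component. For *Lgals9* they were *Lgals3bp* itself (r = 0.785), *F11r* (r = 0.777) and *Pld4* (r = 0.767). Without replicate 19 *Aif1*, the microglial gene for Iba1, came first for *Lgals9* (r = 0.851). Unlike in the correlations above, the means of each sex were not removed, so differences between the sexes enter these r values. The r values are descriptions over the libraries that were also used for the tests.

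The promoters of the genes were also read for interferon motifs, with the correlations above already known. Promoter sequences from 250 bases before to 50 after the start were those of RefSeq on GRCm38.p6, with an entry for 4 of the 5 genes, *Lgals3*, *Lgals3bp*, *Lgals8* and *Lgals9*. The letters searched on both strands were GAAANNGAAA, the interferon-stimulated response element, which 3.44% of 32851 promoters hold, and the shorter AAANNGAAA, which overlaps it and which 10.6% hold. The motifs were chosen after the sequences had been seen, so neither a match nor its absence tests a link to interferon. The 3 windows of 30 bases below carry the matches in capitals, written 5′ to 3′ on the strand of the gene.
*Lgals9*, −55 to −46: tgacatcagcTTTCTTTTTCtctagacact
*Lgals9*, 15 to 24: atagctgtggTTTCTGTTTCctagctcagc
*Lgals3bp*, −15 to −7: gtgttttctgaAAATCGAAActaggtgagg
The windows lie at chr11:78984960-78984989, chr11:78984890-78984919 and chr11:118401956-118401985, all on the minus strand. Positions are counted from the RefSeq start as 0, at chr11:78984924 for *Lgals9* and chr11:118401959 for *Lgals3bp*, which lie inside the gene bounds given above, so that the *Lgals3bp* match also lies inside those bounds. The *Lgals9* matches are to the longer motif on the opposite strand, and the *Lgals3bp* match is to the shorter motif on the strand of the gene. No match to either motif lay in the windows of *Lgals3* and *Lgals8*. The motifs TTCNNNGAA (8.30% of promoters), TGANTCA (7.81%) and GAGGAAGT (3.20%), the gamma-activated site and the motifs of AP-1 and PU.1, had no match in any of the 4 genes. A match describes letters and does not show binding.

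The partners of galectins were examined through a list of 20 receptors and binding proteins. Between amyloid and non-amyloid WT mice 8 of the 20 were called, all higher, beside 7.95% of all tested genes. Between amyloid and non-amyloid Hom mice 6 were, all higher, beside 6.56% of all tested genes. In WT mice *Havcr2*, which encodes Tim-3, the receptor of galectin-9, rose by 1.55 log2 units (SE 0.17). *Trem2*, whose product binds galectin-3, rose by 2.54 (SE 0.18), *Ptprc*, the leukocyte phosphatase CD45, by 2.15 (SE 0.15) and *Itgam*, the integrin subunit CD11b, by 1.18 (SE 0.12). Between amyloid Hom and WT mice 0 of the 20 were called, where 0.0753% of all tested genes were called. In that comparison 17 had lower means, and the median log2 fold change was −0.08 beside 0.0014 over all genes. *Havcr2* was at −0.64 (adjusted p = 0.136) and *Cd44*, a glycosylated adhesion receptor, at −0.80 (adjusted p = 0.161) in edgeR. In the non-amyloid cohort 0 of 20 were called, where 0.0329% of all tested genes were called. The counts of 6 and 0 with amyloid Hom mice were the same without replicate 19.

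Of 12 enzymes that build or trim the glycans galectins bind, 3 were called higher and 1 lower in amyloid against non-amyloid WT mice. The share over all tested genes was 7.95%. *Gcnt1*, which starts the branched core of O-glycans, rose by 1.21 log2 units (SE 0.17). *B4galt1*, which adds the galactose of N-acetyllactosamine, rose by 0.75 (SE 0.10), and *St6gal1*, which caps galactose with sialic acid, by 0.32 (SE 0.06). *B3gnt2*, which extends poly-N-acetyllactosamine chains, fell by 0.37 log2 units (SE 0.08). In Hom mice 2 of the 12 were called, *Gcnt1* at 0.88 and *B4galt1* at 0.33, both higher, beside 6.56% of all tested genes. Between amyloid Hom and WT mice 0 of 12 were called, with *Gcnt1* at −0.46 (adjusted p = 0.201) and *B4galt1* at −0.34 (adjusted p = 0.251) in edgeR, and in the non-amyloid cohort 0 of 12 were called. The shares over all tested genes were 0.0753% and 0.0329%. The counts of 2 and 0 with amyloid Hom mice were the same without replicate 19.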

How the data were processed

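Cortical poly-A RNA of 40 mice was sequenced. The authors deposited raw counts per gene, whole numbers with no normalization. The submitters' processing notes list STAR 2.5.2b, featureCounts 1.5.1, edgeR and mm10, whereas the paper's methods name TopHat and Bowtie within MAP-RSeq, followed by featureCounts. The strand setting of the counting is not given in the sources used here, so counts on genes that overlap an opposite-strand gene are uncertain. The paper excluded 1 unnamed amyloid Hom female for a low gene count percentage and its strandedness check. All 10 libraries of that group were kept here. Replicate 19, an amyloid Hom female, had the lowest total of the 40 libraries and 0.586% of its counts on genes covered from the opposite strand. It may be the excluded library, which the labels do not state, and the reported fits with amyloid Hom mice include it.

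Groups and replicate numbers, which run from 1 to 40, came from the sample labels. The replicate numbers are those of separate mice and pair no samples. The 21253 genes that reached 10 counts in 4 or more libraries were tested by edgeR 4.0.16 (TMM, quasi-likelihood, R 4.3.3). Genotype was tested per cohort, and cohort and genotype by cohort in one fit of 40 libraries, with no covariate. In that fit the dispersion of a gene was shared by the 4 groups. Its p-values and intervals therefore do not allow for a wider spread in amyloid than in non-amyloid mice. Sex was tested per cohort with genotype as a covariate, and genotype by sex within the amyloid cohort. In data simulated for the amyloid Hom against WT comparison, with no outlying libraries or sex differences, the edgeR test found known changes. This does not give its power in the real libraries. CPM used TMM-adjusted library sizes, and log2 CPM a prior count of 2. Permutation tests used 100000 resamples. Alternatives used DESeq2 1.42.0 and limma 3.58.1, other scalings, no filter, sex as a covariate and libraries left out.

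Depth ran from 41646271 to 105903846 counts, and counting error is largest for genes with few counts, such as *Lgals3*. Genes named were the 5 genes, *Trem2*, other galectin family genes, those of the lowest p in lists of partners and glycan enzymes, and the 3 most alike genes. The genes and lists were chosen with earlier results of these data known. Exon positions were those of GENCODE vM21.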

Additional observations from a re-analysis of the deposited data

Results flagged for a closer look

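*Lgals9* in amyloid WT mice held 1 library far from the rest. Replicate 32, a female, was at 28.4 CPM and the next highest at 18.5 CPM, a gap of 0.510 of the whole range of the group, above the 95% critical value of 0.466 for 10 samples. The other 19 of 20 sets of 10 libraries (5 genes in 4 groups) held no such value, and chance alone marks about 1 in 20 sets. Without this library the log2 fold change of *Lgals9* between amyloid Hom and WT mice was −0.37 (adjusted p = 0.338, edgeR), and between amyloid and non-amyloid WT mice it was 0.82 (adjusted p = 2.66e-07).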

How the results depend on the processing

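No paired analysis was possible because no replicate number is shared between groups. Calls for the 5 genes between amyloid Hom and WT mice numbered 0 in the reported fit, 1 with DESeq2, 1 with sex as a covariate, 1 with sex as a covariate and without replicate 19, and 2 in one fit of all 40 libraries. Leaving out each library in turn gave 0 to 1. Over all genes the reported 16 calls of that comparison became 8 with no filter, 303 with DESeq2, 25 with limma-voom, 251 with sex as a covariate, 612 in one fit of all 40 libraries and 200 with sex as a covariate and without replicate 19, and 6 (without amyloid WT replicate 12) to 204 (without amyloid WT replicate 13) when single libraries were left out. Without amyloid WT replicate 13 or 22 *Lgals3bp* was called (adjusted p = 0.025 and 0.0479, edgeR). The 7 non-amyloid genotype calls became 11 with DESeq2 and ran from 4 to 8 over single libraries left out. The genotype by cohort calls of 0 became 38 with DESeq2, 12 with sex as a covariate and 6 with sex as a covariate and without replicate 19, and ran from 0 to 22 (without amyloid WT replicate 13) over single libraries left out. Genotype by sex calls ran from 0 to 1 over single libraries left out. Of the sex comparisons, the 51 amyloid calls became 26 with no filter, 257 with DESeq2 (1 of the 5 genes) and 113 with limma-voom, and ran from 19 (without amyloid Hom replicate 10) to 116 (without amyloid WT replicate 26) over single libraries left out, and the 26 non-amyloid calls became 48 with DESeq2. The cohort calls for *Lgals3*, *Lgals3bp* and *Lgals9* held in every setting tried. *Lgals1* lost its call with other size factors (adjusted p = 0.0513, edgeR) and with no filter (adjusted p = 0.0758). Correlations that passed among the 5 genes numbered 2, with 4 without replicate 19 and 1 without the 2 farthest libraries. The cause of these changes was not tested. Depth limits *Lgals3*, with as few as 8 counts in a library.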

Other observations

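Of the other galectin family genes, *Lgals2*, *Lgals4*, *Lgals7*, *Lgals12*, *Lgalsl* and *Grifin* were tested and 0 of the 6 were called in any comparison of cohort or genotype. The shares over all tested genes were 7.95% (WT) and 6.56% (Hom) between cohorts. Between genotypes they were 0.0753% (amyloid) and 0.0329% (non-amyloid), and 0% for genotype by cohort. A count of 0 among 6 genes therefore does not set these genes apart from the rest. *Lgalsl*, a galectin-like gene, had median levels of 108 to 117 CPM in the 4 groups. *Lgals4* and *Lgals12* had medians of 0.674 to 1.43 CPM, and *Lgals2*, *Lgals7* and *Grifin* medians of 0.051 to 0.133 CPM. The largest cohort value, *Grifin* at 0.99 log2 units in WT mice, came from very low counts and did not pass (SE 0.43, adjusted p = 0.164, edgeR).

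With group means but not those of sex removed, the genes most like *Lgals1* over the 40 libraries were *Hebp1* (r = 0.778), *Top1mt* (r = 0.766) and *D17Wsu104e* (r = 0.745). For *Lgals3* they were *Uba7* (r = 0.737), *Psd4* (r = 0.687) and *Kcnk13* (r = 0.663), and for *Lgals8* they were *A730017C20Rik* (r = 0.800), *Mfsd1* (r = 0.790) and *Pex7* (r = 0.788). Without replicate 19 the 3 genes of *Lgals3* were the same, while those of *Lgals8* became *Maoa*, *Haus6* and *Asah2*.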
